A study of Mus musculus with 4 samples.

Results

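CDS clusters in short internal exons are the stretches of IGF2BP3 eCLIP-seq reads that lie inside coding sequence, away from both ends of the reading frame, in exons with a splice junction on each side. A cluster was a member when its centre lay, on the same strand, in coding sequence (CDS) of an exon that is neither first nor last and is under 200 bases long, more than 100 spliced CDS bases from the start codon and from the stop codon. Each protein-coding gene was represented by 1 transcript of the GENCODE release M21 basic set (mm10), the one with the longest CDS. There were 55,125 members among 337,234 clusters in replicate 1 (16.3%) and 45,877 among 216,354 in replicate 2 (21.2%). They lay in 41,689 exons of 8,073 genes in replicate 1 and in 36,711 exons of 7,298 genes in replicate 2. The annotation holds 139,152 exons that could carry a member, with a median length of 116 bases, so 30.0% of them had a member in replicate 1 and 26.4% in replicate 2.

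IGF2BP3 is an RNA-binding protein with RRM and KH domains, expressed in the germ line, that has been described as a reader of the RNA base modification m6A. In eCLIP, ultraviolet light links a protein to the RNA it touches, the protein is pulled down with its RNA, and the ends of the RNA are sequenced. Internal exons are joined to their neighbours by splicing before the mRNA reaches the cytoplasm, so bases at their edges sit beside bases of another exon in the mature RNA.

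The study asked which RNAs IGF2BP3 binds in the mouse testis. Testes of 8-week-old wild type male mice of the C57BL/6 strain (C57BL/6J in the treatment notes) were dissociated and crosslinked with ultraviolet light, and the lysate held germ cells and somatic cells. Each of 2 replicates paired an IP library, made with an IGF2BP3 antibody, with an SMInput library, the size-matched input that was sequenced without antibody, 4 samples in all. The series calls its replicates biological, but whether the replicates came from separate animals is not stated for these libraries (the notes name 2 testes as starting material), and intervals given below cover counting error only.

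For each cluster of a replicate, the table that the authors deposited gives the log2 fold change of IP over SMInput reads, each scaled to its library, and the −log10 P value of that comparison. A −log10 P value of 0 was listed wherever the log2 fold change was 0 or lower and for some clusters just above that, up to 0.18 in replicate 1 and 0.11 in replicate 2, and 400 is the highest value listed. The read numbers behind a cluster were worked out from these values with library totals of 5,133,438 IP and 8,706,391 SMInput reads in replicate 1, and 4,637,612 IP and 16,696,122 SMInput reads in replicate 2. The SMInput library of replicate 2 was thus the deepest of the 4. Clusters listed at 0 or 400 have no recovered reads. A cluster was counted as called when its log2 fold change and its −log10 P value were both at least 2, the thresholds of the study's methods.

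The tissue label was checked against marker genes. All 10 germ cell markers had clusters in both replicates, 308 clusters in replicate 1 and 275 in replicate 2, and Prm1, a protamine of sperm chromatin, had up to 358 and 639 SMInput reads in a cluster. Every one of the 5 Leydig cell markers had clusters in both replicates too, among them Insl3, a hormone of these cells, with up to 319 and 521 SMInput reads. Of the 5 Sertoli cell markers, 5 had clusters in replicate 1 and 4 in replicate 2, where Rhox5 had none. Peritubular and vessel markers had 65 and 36 clusters from 4 and 3 of 4 genes. Blood markers were the lowest, with 7 and 2 clusters from 3 and 1 of 3 genes. Germ cells and somatic cells of the testis were thus both seen, and fewer cells of a type and less RNA per cell cannot be told apart in such whole-tissue libraries. Among the members, 7 of 88 in germ cell markers were called in replicate 1 (7.95%, in Ddx4, Dazl and Spaca1) and 5 of 97 in replicate 2 (5.15%, in Ddx4, Dazl and Acrv1). Of all members, 3.99% and 6.24% were called, so the germ cell markers were above in replicate 1 and below in replicate 2. Called members numbered 0 of 8 and 1 of 7 in Leydig, 0 of 24 and 0 of 29 in Sertoli and 1 of 33 and 1 of 25 in peritubular and vessel markers, numbers too small to compare.

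Most of these coding clusters were not enriched over SMInput by the thresholds. In replicate 1, 2,200 members were called, which is 3.99% (95% Wilson interval 3.83 to 4.16), against 4.92% of all clusters in the table. In replicate 2, 2,861 members were called, or 6.24% (6.02 to 6.46), against 13.2% of all clusters. The called members covered 1,863 exons of 1,230 genes and 2,488 exons of 1,575 genes. Members were therefore called less often than clusters of the tables as a whole in both replicates. The small margin in replicate 1 rests on the 209,465 clusters of that table with 4 to 9 reads in IP and SMInput together, of which 1.24% were called. With 10 to 19 reads, 7.61% of the members and 13.6% of all clusters were called in replicate 1, and 8.94% and 15.4% in replicate 2. With 50 or more reads the shares were 11.0% and 22.8%, and 7.72% and 18.8%. These shares by read number cover clusters with recovered reads only. They leave out those listed at a −log10 P value of 0, a larger part of the members than of all clusters. They are thus not shares of all clusters of that depth. The median log2 fold change of the members was 0.76 in replicate 1 (quartiles 0.08 and 1.35) and 0.85 in replicate 2 (0.26 and 1.47), beside 1.50 and 1.53 for all clusters. The called members had a median of 2.61 and 2.48. At the other end, 25.1% of members in replicate 1 and 16.6% in replicate 2 were listed at a −log10 P value of 0, against 10.6% and 7.52% of all clusters.

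The depth behind a call differed between the replicates. A called member had a median of 14 IP and 4 SMInput reads in replicate 1, and of 10 IP and 7 SMInput reads in replicate 2. Calls on fewer than 10 IP reads made up 18.2% of the called members of replicate 1 and 47.5% of those of replicate 2. Where only members with at least 10 IP reads were kept, 13.0% were called in replicate 1 and 13.0% in replicate 2, but this filter selects on the IP reads that also set the fold change. Among members with recovered reads, classed by IP and SMInput reads together, the replicates differed in both directions. At 4 to 9 reads 1.06% and 6.39% were called, and at 50 or more 11.0% and 7.72%. A single SMInput read stood against the IP in 11.9% and 7.28% of the called members with recovered reads. Called members were wider than members as a whole, with a median of 56 bases in both replicates against 45 and 48.

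Clusters in long internal exons, those of 200 bases or more that met the rest of the rule, are the nearest comparison. Of these, 5.77% (5.43 to 6.13) were called in replicate 1 and 8.40% (7.95 to 8.87) in replicate 2, so short exons were lower in both. Their median log2 fold change was 0.76 and 0.95, and members differed from it by 0.00 in replicate 1 and −0.11 in replicate 2. The quartiles in long exons were 0.24 and 1.50 in replicate 1 and 0.39 and 1.59 in replicate 2, against 0.08 and 1.35, and 0.26 and 1.47, for the members. Both quartiles of the members were thus lower in both replicates, while the medians of replicate 1 were equal. Among clusters with recovered reads, the share of calls was lower in short exons in every class of read number. With 50 or more reads in IP and SMInput together, 11.0% of the members and 15.5% of the clusters in long exons were called in replicate 1. In replicate 2 these were 7.72% and 10.8%. From 10 to fewer than 20 reads, the members gave 7.61% against 9.25% in replicate 1, and 8.94% against 11.0% in replicate 2. Clusters listed at a −log10 P value of 0 are left out of these classes by their fold change. They made up 25.1% and 16.6% of the members and 20.1% and 13.3% of the clusters in long exons. The class shares are therefore not shares of all clusters of that depth. Counted by length of annotated exon, short exons were the denser of the 2 kinds, with 0.142 and 0.184 called members per kilobase against 0.120 and 0.140 in long exons, since they also held more clusters per kilobase, 3.55 and 2.96 against 2.07 and 1.67. Enrichment that runs across a splice junction can be counted in both exons, so these are densities of clusters and not of sites. No test was made of these differences, because clusters are not replicates.

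At the edges of the rule the shares moved little, the most at the start codon in replicate 1. Exons of 180 to 199 bases, just inside the limit, had 3.62% and 5.64% of their clusters called, and exons of 200 to 219 bases had 4.13% and 5.38%. Clusters 101 to 150 bases before the stop codon had 6.18% and 11.3% called, and those 51 to 100 bases before it in the same short exons had 5.91% and 10.3%. At the other end of the reading frame, the shares were 4.43% and 4.99% at 101 to 150 bases after the start codon and 3.19% and 4.68% at 51 to 100 bases. Over exons of any kind, CDS clusters within 100 bases of the stop codon had 10.3% and 14.8% called. Those within 100 bases of the start codon had 3.94% and 6.31%. Exon length within the limit showed no gradient, with 3.62% to 4.28% called over 7 length classes in replicate 1 and 5.64% to 6.52% in replicate 2.

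Position along the reading frame did show one, and the share of called members rose toward the stop codon. Within 200 bases of it, 6.43% (5.61 to 7.37) of the members were called in replicate 1 and 10.4% (9.23 to 11.6) in replicate 2. From 200 to fewer than 300 bases the shares were 6.61% and 9.33%, so in replicate 1 the nearest class was not the highest. From 500 to fewer than 1000 bases away the shares were 4.67% and 7.14%. From 2000 to fewer than 5000 bases they were 2.53% and 3.90%, and at 5000 bases or more 1.74% (1.35 to 2.25) and 2.63% (2.10 to 3.28). The fall was in the same direction in both replicates, and the intervals of the nearest and the farthest class did not overlap. These intervals treat members as independent, which members of 1 gene are not. The farthest class came from 343 genes in replicate 1 and 315 in replicate 2. The mean log2 fold change fell with distance as well, from 1.01 to 0.55 in replicate 1 and from 1.15 to 0.69 in replicate 2. The median numbers of reads hardly changed over the 7 distance classes, at 6 to 7 IP reads in both replicates, with 5 to 6 SMInput reads in replicate 1 and 11 to 12 in replicate 2. These medians cover members with recovered reads, and the share listed at a −log10 P value of 0 rose with distance, from 18.8% to 34.1% in replicate 1 and from 9.81% to 22.2% in replicate 2. Members within 300 bases of the stop codon were called more often than those at 2000 bases or more by 5.20 percentage points as a mean of the replicates (4.19 in replicate 1 and 6.20 in replicate 2). This comparison was chosen after the data were seen.

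Counting exons instead of bases gave the same order. In the penultimate exon, 6.71% and 10.8% of the members were called, in exons with 6 to 10 exons after them 3.65% and 5.68%, and in exons with more than 20 after them 2.12% and 3.06%. Long reading frames hold most of the distant exons, so the frame was also divided into 4 equal parts within classes of CDS length. In frames under 1000 bases, the share went from 6.22% in the first part to 8.52% in the last in replicate 1, and from 7.11% to 15.2% in replicate 2. In frames of 1000 to fewer than 2000 bases it went from 3.54% to 5.56% and from 5.76% to 8.83%. In frames of 2000 bases or more it went from 2.20% to 3.78% and from 3.49% to 5.76%. The last part was above the first in each of the 3 classes in both replicates, and shorter frames had higher shares in all 4 parts than frames of 2000 bases or more. Called members lay in transcripts with a median CDS of 1,821 and 1,827 bases, against 2,403 and 2,394 bases for members not called.

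The 3′UTR, the stretch after the stop codon, was read as a further property of the same genes. Of the 297 genes that had a short internal exon with overlapping called clusters of both replicates, 149 (50.2%, 44.5 to 55.8) also had a called cluster in their 3′UTR in both replicates. Among the 4,493 genes with members in both replicates and none called in either, 910 (20.3%, 19.1 to 21.5) did. Genes with called short exons thus had called 3′UTR clusters more often. No called 3′UTR cluster in either replicate was found in 94 of the 297 genes (31.6%) and in 2,626 of the 4,493 (58.4%). Calls in both regions depend on read depth, for which the 2 groups of genes were not matched. In genes without any called 3′UTR cluster, the share of called members still fell with distance from the stop codon, from 4.53% within 300 bases to 2.18% at 2000 bases or more in replicate 1 and from 7.55% to 3.26% in replicate 2. In genes with a called 3′UTR cluster in both replicates, it fell from 9.84% to 3.09% and from 15.2% to 4.43%. The difference between near and far members was smaller without called 3′UTR clusters, 3.32 percentage points as a mean of the replicates.

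The replicates found many of the same places. Of the members, 29,549 in replicate 1 (53.6%) and 28,622 in replicate 2 (62.4%) shared at least 1 base with a member of the other replicate. Of the called members, 653 in replicate 1 (29.7%) and 636 in replicate 2 (22.2%) overlapped a called one, beside 35.4% and 28.3% for long internal exons. Where a called member met any member of the other replicate, that one was called in 41.1% and 32.1% of cases, while for members not called it was 5.49% and 3.91%. A call in 1 replicate thus went with a call in the other, though the larger number of calls had no called partner. Across 33,282 overlapping pairs, the log2 fold changes correlated with a Pearson's r of 0.508, and with at least 10 IP reads in both members the value was 0.634 over 8,921 pairs. With at least 50 IP reads it was 0.888 over 604 pairs. These pairs are clusters of the same genes in the same libraries, several can come from 1 site, and they are not independent.

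Overlapping called clusters marked 467 exons in 297 genes, out of 25,819 exons and 6,587 genes with a member in both replicates. Of these genes, 191 had 1 such exon, 69 had 2, 19 had 3 and 18 had 4 or more. Within the 297 genes, 2,335 exons had members in both replicates, and the 467 were 20% of them, taken over all these genes together. There were 113 pairs of directly neighbouring exons in which both were called in both replicates, made up of 191 exons. Fold changes of neighbouring exons moved together: the mean log2 fold changes of an exon and the next correlated with a Pearson's r of 0.477 over 23,156 pairs in replicate 1 and 0.555 over 20,130 pairs in replicate 2. For exons 5 apart the values were 0.238 (13,550 pairs) and 0.332 (11,647 pairs), and for exons 10 apart 0.238 (7,760 pairs) and 0.274 (6,615 pairs). Each pair shares a transcript, its abundance and its library, and its clusters may share reads.

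Among all members, 55.1% in replicate 1 and 56.1% in replicate 2 touched an exon edge, taken as reaching within 2 bases of it, which follows in part from the width of a cluster and the length limit of the rule. The called members touched an edge more often, 61.5% and 59.8%, than the members not called, 54.9% and 55.9%. In long internal exons the order was reversed, with 18.25% and 21.05% of called clusters against 22.31% and 23.96% of the others. Called members were also wider than members as a whole. The part of width in the contrasts of this paragraph was not tested. Clusters that ran past the 5′ edge of the exon by more than 2 bases, into the intron in the genome, made up 11.4% and 12.5% of the called and 7.74% and 7.88% of the other members. Past the 3′ edge the shares were 4.27% and 4.75% against 3.29% and 3.33%. The overhang was short, a median of 5 bases at the 5′ edge in both replicates. Centres of called members were spread over the exon with a median relative position of 0.493 in both replicates, where 0 is the 5′ and 1 the 3′ edge. With the exon divided into 5 equal parts, the middle part held 24.3% of called centres in both replicates, against 20.6% and 21.9% for members not called.

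Enrichment tended to run across splice junctions. Of the called members that touched the 3′ edge of their exon, 33.3% of 780 in replicate 1 and 33.9% of 985 in replicate 2 faced a called cluster at the joined edge of the next exon. For members not called, this was 2.13% of 15,972 and 2.80% of 13,271. At the 5′ edge, 34.0% of 689 and 36.4% of 841 called members faced a called cluster on the exon before, against 2.21% of 14,412 and 2.94% of 11,901. Any cluster at all, called or not, stood across the 3′ junction for 74.0% and 68.0% of the called and 61.2% and 59.6% of the other members. The clusters of such a pair may share reads, so they are not independent measurements.

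Called exons differed little from the others in reading frame and had somewhat longer introns. Their length was a multiple of 3 for 38.9% and 38.7% of called members, against 39.5% and 39.3% of the others. The median intron before the exon was 1,436 and 1,430 bases against 1,292 and 1,284. After the exon it was 1,272 and 1,277 bases against 1,210 and 1,200. Members whose centre was CDS in every basic coding transcript spanning it, 52,506 and 43,731 of them, had 3.89% and 6.13% called. The remaining 2,619 and 2,146, which are not CDS in at least 1 transcript, had higher shares, 5.92% and 8.48%.

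Base composition differed between called and other members. In windows of 100 bases along the spliced transcript, centred on the cluster, the median GC content was 47% in called and 50% in other members in both replicates, and 51% in windows at the middle of all 139,152 eligible exons. T made up 26.1% and 26.8% of the bases of called windows against 23.4% and 23.6%, and G 23.6% and 23.6% against 25.7% and 25.8%. At members called in both replicates with overlap, T reached 28.0% and G was 21.7%, beside 23.7% and 25.6% at overlapping members called in neither. Called members were thus richer in T and poorer in G on the sense strand.

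Motifs were searched as exact letters on the sense strand of the same windows, and a match is a description, not a site or a cause. CACA was in 39.7% (37.7 to 41.8) of the called windows and 35.3% of the others in replicate 1, and in 38.1% (36.3 to 39.9) and 34.7% in replicate 2, beside 36.8% of windows at the middle of all eligible exons. At members called in both replicates it was in 43.6% (39.9 to 47.5) of 653 windows, against 34.3% of 26,426 windows at members called in neither. The 653 windows lay in 467 exons of 297 genes, and windows of members in 1 exon can overlap. Intervals in this paragraph treat windows as independent, which they are not. CACA was the motif of the 5 that was more frequent at called members in both replicates by more than 1 percentage point. GGAC was less frequent at called members, in 31.7% and 32.1% of windows against 35.8% and 35.7%, and in 38.5% of the exon middles. GAACA, a motif the study names, was in 12.3% and 12.6% of called windows against 14.0% and 14.0%, and in 14.8% of the exon middles. AAACC, also named by the study, was in 9.41% against 8.87% in replicate 1 and in 8.21% against 8.59% in replicate 2, so its direction differed between the replicates. GGACT, which contains GGAC, was in 10.1% and 10.5% of called windows against 9.91% and 10.3%, and in 10.8% of the exon middles, and AAACC was in 9.21% of them. GC content moved with these shares, and its part in them was not tested.

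Exons with the strongest enrichment were chosen by the smaller of the log2 fold changes of the 2 replicates, with at least 10 IP reads or a −log10 P value of 400 in both and 1 exon per gene. The strongest was exon 4 of 5 of 1700028J19Rik, a gene known by its clone name (ENSMUSG00000038782.7, minus strand, chr7:44230782-44230910). Its best pair of clusters had a log2 fold change of 6.97 in replicate 1 and 5.92 in replicate 2, both at a −log10 P value of 400. All 4 members of the exon were called in replicate 1 and both of its 2 in replicate 2, with lowest values of 4.30 and 3.60. Exon 2 of 4 of Spata3, a spermatogenesis-associated gene (ENSMUSG00000026226.16, plus strand, chr1:86024330-86024501), came next with 5.70 and 5.76 in its best pair. It was called from edge to edge, by 10 of 10 members in each replicate, with log2 fold changes from 3.99 to 5.70 in replicate 1 and from 4.15 to 5.86 in replicate 2. In other basic transcripts, 123 bases of the 1700028J19Rik exon and 166 bases of the Spata3 exon are UTR, so these 2 signals cannot be assigned to coding sequence alone, and their sequences are not shown, a choice made after the data were seen.

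Exon 5 of 6 of Reep6, a protein of the endoplasmic reticulum (ENSMUSG00000035504.16), was called along its full length of 81 bases in both replicates, by 6 members in each. Values ran from 3.84 to 5.21 in replicate 1 and from 3.57 to 5.19 in replicate 2, and the highest stood at the 3′ edge. Of the 6 coding basic transcripts of Reep6, 3 skip this exon. Tmem225, which encodes a transmembrane protein (ENSMUSG00000040541.7), showed the opposite layout, with calls limited to the last bases of exon 2 of 4. Its 2 called members held 41 IP reads against 1 SMInput read in replicate 1 (6.12) and 42 against 3 in replicate 2 (5.66). The other 2 members of replicate 2 in this exon, one of them at its 5′ edge with 7 IP and 9 SMInput reads, were not called.

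Exon 3 of 4 of Tex36, a testis-expressed gene (ENSMUSG00000030976.3), also had its calls at the 3′ edge, where the member with the highest fold change held 34 IP and 2 SMInput reads in replicate 1 (4.85) and 31 and 3 in replicate 2 (5.22). The member next to them toward the 5′ edge had values of 1.25 and 1.85 and was not called in either replicate. In both replicates, the calls in this exon were thus limited to its end. Exon 5 of 9 of Rnft1, a RING finger transmembrane protein (ENSMUSG00000020521.7), rested on more reads, 54 against 4 in its best member in replicate 1 (4.52) and 69 against 10 in replicate 2 (4.63).

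Pigf, which acts in the synthesis of the GPI anchor that holds proteins on the cell surface (ENSMUSG00000024145.6), had every member of exon 4 of 6 called, 2 in replicate 1 and 4 in replicate 2. Its values were 3.57 and 4.41 in replicate 1, with 35 and 100 IP reads against 5 and 8 SMInput reads. In replicate 2 they ran from 4.49 to 5.72, with 45 to 81 IP reads against 4 to 13. The called clusters thus covered nearly all of the exon in both libraries. Fam208b, also known as Tasor2 (ENSMUSG00000033799.10), had 1 called member of 40 IP and 4 SMInput reads in exon 18 of 20 in replicate 1 (4.08) and 2 in replicate 2 (2.43 and 4.17). Exon 4 of 11 of Lrrc37a, a leucine-rich repeat gene (ENSMUSG00000078632.3), had 2 called members in each replicate that together covered it, at 2.76 and 4.76 with 12 and 16 IP reads in replicate 1 and at 4.07 and 4.85 with 14 and 16 IP reads in replicate 2.

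The sequences of 7 further exons of this group are given because they are coding stretches with strong enrichment in both replicates, from the GRCm38/mm10 genome, 5′ to 3′ on the strand of the gene. Capitals mark the bases that lie under called members of both replicates. The exons are Tmem225 (plus strand, chr9:40149328-40149474), Reep6 (plus strand, chr10:80334713-80334793), Tex36 (minus strand, chr7:133594406-133594486), Rnft1 (plus strand, chr11:86490358-86490511), Pigf (minus strand, chr17:87020401-87020517), Fam208b (minus strand, chr13:3567436-3567617) and Lrrc37a (minus strand, chr11:103492140-103492211).
Tmem225: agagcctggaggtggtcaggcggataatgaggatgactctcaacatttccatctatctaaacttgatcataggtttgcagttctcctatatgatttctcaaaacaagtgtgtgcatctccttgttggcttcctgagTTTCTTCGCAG
Reep6: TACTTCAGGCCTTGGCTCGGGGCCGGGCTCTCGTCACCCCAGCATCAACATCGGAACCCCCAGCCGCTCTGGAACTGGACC
Tex36: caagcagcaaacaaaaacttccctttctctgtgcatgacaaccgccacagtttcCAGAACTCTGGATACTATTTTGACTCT
Rnft1: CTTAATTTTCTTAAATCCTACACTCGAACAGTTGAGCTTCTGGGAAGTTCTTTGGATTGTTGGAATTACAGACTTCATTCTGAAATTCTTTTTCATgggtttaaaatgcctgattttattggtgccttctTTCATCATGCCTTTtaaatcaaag
Pigf: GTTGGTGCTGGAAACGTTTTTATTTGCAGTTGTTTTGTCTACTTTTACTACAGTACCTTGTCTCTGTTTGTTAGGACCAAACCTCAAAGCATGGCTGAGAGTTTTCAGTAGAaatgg
Fam208b: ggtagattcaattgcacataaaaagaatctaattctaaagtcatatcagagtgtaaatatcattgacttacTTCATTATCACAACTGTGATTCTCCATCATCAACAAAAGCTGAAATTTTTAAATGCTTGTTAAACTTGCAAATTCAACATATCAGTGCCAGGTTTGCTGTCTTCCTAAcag
Lrrc37a: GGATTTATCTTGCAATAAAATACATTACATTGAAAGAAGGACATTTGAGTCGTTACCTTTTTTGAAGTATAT
Their GC content ranged from 27.8% in Lrrc37a to 65.4% in Reep6, so these exons do not share a base composition. The bases in capitals number 11 in Tmem225, 27 in Tex36, 108 in Fam208b, 110 in Rnft1 and 112 in Pigf, and they are the whole exon in Reep6 and Lrrc37a. CACA occurs in the exons of Tex36 and Fam208b, GAACA in that of Rnft1, AAACC in that of Pigf and GGAC in those of Reep6, Pigf and Lrrc37a, while Tmem225 holds none of the 5 motifs searched.

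Another view is given by genes in which many short exons were called in both replicates with overlap. Sppl3, an intramembrane protease (plus strand, chr5:115011137-115098790), had 6 of 7 eligible exons called, exons 3 to 8 of 11, with 11 of 14 members called in replicate 1 and 13 of 14 in replicate 2. Its medians were 2.69 and 2.91. These counts, and the medians and ranges given for the genes below, cover all short exons of a gene, also those not called in both replicates. Enrichment ran over nearly the whole series of its short exons, and it also had called 3′UTR clusters in both replicates.

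Best1, a chloride channel of the bestrophin family (minus strand, chr19:9985174-10001633), had 5 of 8 eligible exons called, with 9 of 15 and 10 of 12 members called and medians of 2.44 and 2.51. R3hdm1, a protein with an R3H domain (plus strand, chr1:128103324-128237736), had 5 of 20 exons called in both, all from exon 16 onward, out of 10 called in replicate 1 and 6 in replicate 2, with called members from 2.02 to 3.80 and from 2.15 to 4.43. Slc9c1, the sodium-proton exchanger of sperm (plus strand, chr16:45535309-45607001), had 5 of 24 called in both, all among exons 4 to 10 of 28, with up to 5.08 in replicate 1 and 4.17 in replicate 2. These were all of its called exons in replicate 1, while 13 of its exons were called in replicate 2, at least 6 of them outside exons 4 to 10. It had no called 3′UTR cluster in either replicate. Pabpc1, the main cytoplasmic poly(A)-binding protein (minus strand, chr15:36595661-36608973), had 5 of 11 called, exons 2, 5, 6, 12 and 13 of 15. Its called members stayed close to the threshold, from 2.08 to 2.47 in replicate 1 and from 2.02 to 2.24 in replicate 2, with up to 210 and 192 IP reads in a member. Of its 42 and 46 members, 9 and 7 were called, and the medians were 1.73 and 1.61.

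There were 12 genes with 4 such exons each, of which the first 4 by gene symbol are described. Alg8, a glucosyltransferase of N-glycan assembly (plus strand, chr7:97371606-97392185), had exons 3, 9, 10 and 11 of 13 called, with called members from 2.26 to 3.57 and from 2.09 to 3.43 and no called 3′UTR cluster in either replicate. Boll, an RNA-binding protein of the DAZ family (minus strand, chr1:55300069-55363319), had exons 6 to 9 of 10 called, with 6 and 8 of 11 members and values from 2.06 to 2.91 and from 2.03 to 3.03. It too had no called 3′UTR cluster. Dpy19l2, which is needed to attach the acrosome to the nucleus (minus strand, chr9:24557047-24696293), had exons 11, 14, 16 and 18 of 22 called, with 10 of 27 and 12 of 31 members and values up to 4.01 and 3.59. Lrrc37a (minus strand, chr11:103451955-103504597) had exons 2 to 5 of 11 called, with 8 of 11 and 9 of 13 members, the highest at 4.76 and 4.85.

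Gene lists were read by the share of their members called, beside 3.99% and 6.24% of all members. The acrosome and gamete fusion list was above in both replicates, with 30 of 299 members called in replicate 1 (10%, 7.12 to 14.0) and 30 of 302 in replicate 2 (9.93%, 7.05 to 13.8). Exons called in both with overlap came from Acr, Adam3, Adam32 and Dpy19l2, 7 in all, and Dpy19l2 gave 4 of them. Without Dpy19l2, which held 10 and 12 of the 30 calls, the list had 20 of 272 (7.35%) and 18 of 271 (6.64%), near all members in replicate 2. Adam3, a sperm surface protein, had exon 12 of 22 called, at 2.19 in the weaker replicate. The fibrous sheath and outer dense fibre list, proteins of the sperm tail, had 13 of 164 (7.93%, 4.69 to 13.1) and 18 of 157 (11.5%, 7.38 to 17.4). Here Oaz3, an antizyme made in spermatids, had 8 of 13 and 11 of 12 members called, up to 3.63 and 3.67 and both at a −log10 P value of 400, with exons 3 and 4 of 6 called in both. Without Oaz3, the list had 5 of 151 (3.31%) and 7 of 145 (4.83%), below all members in both replicates. Akap4, the main protein of the fibrous sheath, had exon 3 of 6 called with a value of 2.32 in the weaker replicate, and Fsip2 was the remaining gene. Genes named in these lists beyond the first 2, and the shares without a gene, were chosen after their values were seen.

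Germ cell translation regulators and m6A proteins had 30 of 390 members called (7.69%, 5.44 to 10.8) and 33 of 377 (8.75%, 6.30 to 12.0), with 13 exons called in both in Boll, Cpeb2, Dazl, Pabpc1 and Prrc2a. Without Pabpc1, which held 9 and 7 of these calls, the shares were 6.03% and 7.85%. The piRNA pathway and germ granule list had 12 of 285 (4.21%, 2.42 to 7.21) and 21 of 283 (7.42%, 4.90 to 11.1). Its exons called in both, 6 and 11, were those of Mael, a piRNA pathway protein, with 4 of 24 and 11 of 20 members called. Mael thus held 11 of the 21 calls of this list in replicate 2, and without it the shares were 3.07% and 3.80%. Meiotic chromosome proteins had 9 of 410 (2.20%) and 6 of 323 (1.86%), with no exon called in both, and without Atr 1.45% and 1.85%.

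Lists of the translation machinery lay near or under all members. Translation initiation and elongation factors had 19 of 346 called (5.49%, 3.54 to 8.42) and 15 of 304 (4.93%, 3.01 to 7.98), so the list was above all members in replicate 1 and below in replicate 2. Eif4g3 and Eif4g2, members of the eIF4G scaffold family of initiation, had exons 4 and 5 of 34 and exons 9 and 21 of 22 called in both, with 2.70 and 2.69 as the larger of the weaker-replicate values, and Eif4e was the remaining gene. Ribosomal proteins of the cytoplasm had 5 of 158 (3.16%, 1.36 to 7.19) and 7 of 140 (5.0%, 2.44 to 9.96), with exons called in both in Rpl11, Rpl24 and Rpl3. Without Rpl11, the shares were 1.96% and 3.76%. Rpl24, of the large subunit, had 2 exons, 4 and 5 of 6, one at 2.35 in replicate 1 and 2.49 in replicate 2 and the other at 2.44 and 2.30. For Rpl3, of the same subunit, it was exon 9 of 10, at 2.50 in replicate 1 and 3.35 in replicate 2.

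In the proteasome list, 11 of 316 members (3.48%, 1.95 to 6.12) and 10 of 257 (3.89%, 2.13 to 7.01) were called. Psme4, the proteasome activator PA200, had the neighbouring exons 43 and 44 of 47 called in both, its called members over 4 and 3 exons reached 2.28 and 3.14, and Psmb7, a catalytic subunit, had exon 4 of 8, at 2.30 in the weaker replicate. Chaperones had 15 of 376 (3.99%, 2.43 to 6.48) and 12 of 331 (3.63%, 2.09 to 6.23), with exons 3 and 8 of 12 of Tcp1, a subunit of the cytosolic chaperonin, called in both. Without Tcp1 the shares were 2.61% and 2.91%. Tubulins and actins had few members, 1 of 31 (3.23%) and 4 of 27 (14.8%, 5.92 to 32.5) called, and no exon called in both; without Tuba3b, 0 of 28 and 3 of 23 were called. Glycolysis genes had 4 of 214 (1.87%) and 2 of 184 (1.09%), also with no exon called in both, and without Gapdhs 1.52% and 0.592%. These lists held few calls, and their intervals are wide.

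Low shares over many members were found in 3 lists. The axoneme and dynein heavy chain list had 18 of 1,315 members called (1.37%, 0.868 to 2.15) and 18 of 1,167 (1.54%, 0.978 to 2.42), with a single exon called in both, exon 15 of 23 of Cfap69, a flagellar protein, at 2.22 in the weaker replicate. Splicing factors and hnRNPs had 8 of 455 (1.76%, 0.894 to 3.43) and 2 of 391 (0.512%, 0.140 to 1.85), with no exon called in both. Chromatin modifiers and remodelers had 23 of 1,086 (2.12%, 1.42 to 3.16) and 24 of 938 (2.56%, 1.73 to 3.78), with exons called in both in Kmt2e and Setd1a. In Kmt2e, a SET domain protein, these were exons 21, 25 and 26 of 27. All its called members, which lay in 4 exons in replicate 1 and in 3 in replicate 2, ran from 2.22 to 3.26 and from 2.00 to 2.70. In Setd1a, a histone H3 lysine methyltransferase, it was exon 5 of 19, at 2.03 and 2.36. For all 3 lists the upper interval bound was below the share of all members in both replicates, and members of a list that share a gene are not independent. The share also fell with distance from the stop codon, to 2.53% and 3.90% at 2000 to fewer than 5000 bases. The lists were not matched for this distance or for CDS length, and the part of either in the low shares was not tested.

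A further group of 10 genes, some of them named in the study's text and others met in earlier results of these data, was also looked up in its short exons. Dot1l, a histone H3 lysine methyltransferase, had 18 and 13 members and none called, with highest log2 fold changes of 1.38 and 1.22, while its 3′UTR had called clusters in both replicates. Hdac11, a histone deacetylase, likewise had 4 members in each replicate, none called, with highest values of 1.76 and 0.75, and called 3′UTR clusters in both. Smarca2, a chromatin remodeling ATPase, had 33 and 29 members, none called, highest 1.88 and 1.43, and called 3′UTR clusters in both. Beside 3.99% and 6.24% of all members, a count of 0 among so few members says little about a single gene, here and for the genes that follow.

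Prrc2a, described as a reader of m6A, had the only exons of these 10 genes called in both replicates with overlap, exons 27 and 29 of 31 (minus strand, chr17:35149076-35164897). It had 4 called of 38 members in replicate 1, from 2.25 to 3.0 with a −log10 P value of up to 31.8, and 3 of 37 in replicate 2, from 2.02 to 2.58 with up to 62.8. Bag6, a chaperone that lies beside it on the other strand, had 34 and 33 members and none called, with highest values of 1.68 and 1.67. Ybx2, a germ cell Y-box protein, had 12 and 7 members, none called, highest 1.95 and 1.36. Igf2bp3 itself had 3 of 12 members called in replicate 1, up to 2.76, and 1 of 11 in replicate 2, at 2.70, with no overlap of called clusters between the replicates.

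Of the flagellar genes of this group, Cfap65 had 21 and 16 members, none called, and its median log2 fold changes were negative, −0.18 and −0.46. Dnah2, a dynein heavy chain, had 0 of 63 and 1 of 58 members called, the latter at 3.85 with a −log10 P value of 2.04. Dnhd1, a related dynein gene, had 2 of 16 members called in replicate 1, at up to 3.18, and 0 of 24 in replicate 2, where the highest was 2.11.

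At the other end stand exons with many SMInput reads and no enrichment. In 1,651 exons, every member of both replicates had a log2 fold change at or below 0. Reads of such clusters could not be recovered, but the smallest whole numbers that give their fold change set a lower bound, and the 5 exons with the highest bound in the weaker replicate are given. The highest was exon 2 of 5 of Gm10800 (minus strand, chr2:98667079-98667228), a predicted gene, with at least 2,730 and 12,528 SMInput reads and log2 fold changes of −3.73 and −4.06. Another predicted gene, Gm21738 (exon 2 of 6, minus strand, chr14:19418767-19418860), had at least 161 and 719 reads and values of −3.57 and −5.06. The far lower IP than SMInput coverage sets these 2 apart from the other 3. Exon 12 of 21 of Odf2, an outer dense fibre protein of the sperm tail (plus strand, chr2:29914734-29914919), had at least 197 and 327 SMInput reads, with its lowest member at −0.10 in replicate 1 and −0.42 in replicate 2. Hsp90b1, an endoplasmic reticulum chaperone (exon 16 of 18, minus strand, chr10:86692140-86692295), had at least 107 and 188 reads and values of −0.34 and −0.42. Nasp, a histone chaperone (exon 4 of 16, minus strand, chr4:116618870-116618980), had at least 107 and 212 reads, with values down to −0.98 and −0.76. In Odf2, Hsp90b1 and Nasp, coding exons with many SMInput reads thus had no IP enrichment in either replicate. Whether the reads at the 2 predicted genes came from these transcripts was not tested.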

How the data were processed

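IGF2BP3 eCLIP-seq of mouse testis was read from the authors' deposited cluster table of each of 2 replicates. In these tables, the authors give a −log10 P value and a log2 fold change of IP against SMInput reads for each cluster. The −log10 values are deposited as 0 where the log2 fold change was 0 or lower, and for some clusters just above that, and reach 400 at most. Before that, the submitters' notes name cutadapt, Bowtie2 and STAR, with alignment to mm10, and the study's methods name Clipper, with versions given in the study's methods and not in the labels.

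Clusters were placed by their centre, on the same strand, in 1 transcript per protein-coding gene of GENCODE release M21 basic, taking the longest CDS, then the longest transcript, then the lowest identifier, on 21 chromosomes. Called means that both deposited values of the authors, log2 fold change and −log10 P value, were at least 2. Library totals and reads per cluster were worked out as the whole numbers that return both values, with Fisher's exact test where a number, observed or expected, was below 5 and a Yates-corrected chi-square test otherwise, to a relative tolerance of 0.0001. A single solution was found for 99.9% of the clusters between 0 and 400 in replicate 1 and 99.9% in replicate 2. Placement, overlaps and read recovery were tested on simulated data. Overlap meant at least 1 shared base on the same strand. Windows of 100 bases followed the spliced transcript on the sense strand. Intervals are 95% Wilson intervals. With 2 tables that each already compare an IP with its SMInput, groups of samples were not tested against each other.

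Members and gene lists were chosen with earlier results of these data known. The genes named were (a) the 10 exons with the largest smaller log2 fold change of the 2 replicates among exons with overlapping called clusters and at least 10 IP reads or a −log10 P value of 400 in each, 1 per gene; (b) the 10 genes with the most such exons; (c) the first 2 genes of each of 14 lists by the number of such exons; (d) 10 genes, Dot1l, Hdac11, Smarca2, Bag6, Prrc2a, Cfap65, Dnah2, Dnhd1, Ybx2 and Igf2bp3, listed as named with the eCLIP-seq data, though Smarca2, Bag6 and Prrc2a are not in the study's main text; and (e) the 5 exons with the most SMInput reads without enrichment in either replicate. Rule (e) could not be applied as written, because clusters at or below 0 have no recovered reads, and was replaced, after the data were seen, by the lowest possible read number. Some results that these rules select are not reported here. Listed names not found in the annotation were Gasz, Papi, Six6os1, Dnai1, Dnai2, Cfap47, Cfap91, Cfap251, Pdilp and Cct6a. The lists cover ribosomal proteins, translation factors, splicing factors, chromatin modifiers, the piRNA pathway, germ cell translation regulators, meiotic proteins, the axoneme, the fibrous sheath, the acrosome, the proteasome, chaperones, tubulins and actins, and glycolysis.

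Alternatives covered the exon length limit, the distance to the codons, the transcripts, clusters wholly inside the exon, the thresholds, a minimum of 10 IP reads, the overlap, 1 cluster per exon, the motif window and each replicate alone. Gene list shares without the gene with the most called members, and the comparison by distance to the stop codon with its alternatives, were added after the data were seen. The anti-IgG arm named in the series text was not used here. Calculations used Python 3.11.15, pandas 2.3.3, numpy 2.4.6, scipy 1.17.1 and pysam 0.24.0.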

Additional observations from a re-analysis of the deposited data

How the results depend on the processing

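Over all clusters, no paired analysis was possible because the clusters differ between the tables and those listed at 0 or 400 have no read numbers. Each deposited table is already 1 comparison of an IP with its SMInput, so its log2 fold changes are differences within a pair. The 33,282 overlapping pairs of members have a log2 fold change in both replicates, but no fit across samples was made. Values are means of the 2 replicates except the count of exons. As reported, 5.11% of members were called, their median log2 fold change differed from that in long exons by −0.0535, 467 exons had overlapping called clusters, 26.0% of called members overlapped a called one, 55.6% of members touched an edge, GC differed by −3.00, the relative position was 0.493, the stop codon difference was 5.20 points, and the motif differences were −1.57 (GAACA), 0.0811 (AAACC), −3.88 (GGAC), 0.244 (GGACT) and 3.90 (CACA). Of 73 values of these results under other settings, 28 moved by less than the SD of the 2 replicates (for the exon count, by less than 1.5 times), 45 by more, a small move where that SD is small, as for position, and 3 of these changed sign; the cause was not tested.

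With both thresholds at 3, the values were 0.753% called, 70 exons, GC −2.25, position 0.520, stop codon difference 1.16, GAACA −4.16, GGAC −2.33, GGACT 1.05 and CACA 4.72. With the log2 threshold lowered to 1, they were 10.4% called, 1,429 exons, overlap 40.3%, GC −2.00, position 0.495, stop codon difference 8.78, GAACA −2.06, AAACC −0.0973, GGAC −4.25, GGACT 0.206 and CACA 1.78. With at least 10 IP reads, they were 13.0% called, overlap 32.5%, position 0.494, stop codon difference 10.3, GAACA −0.824, AAACC 0.928, GGAC −2.68, GGACT −0.170 and CACA 5.49. Only clusters wholly inside the exon gave 208 exons, 47.3% touching an edge and position 0.528. A limit of 150 bases gave 60.3% touching an edge and position 0.493, a distance of 200 bases from the codons position 0.492, and CDS in every basic transcript position 0.493. Windows of 50 bases gave GAACA −0.529, GGAC −2.62 and CACA 2.31. Genomic windows gave GAACA −0.653, AAACC −0.189, GGAC −3.02, GGACT 0.102 and CACA 2.35. Genes with no called 3′UTR cluster gave a stop codon difference of 3.32. With 1 replicate left out, the exons numbered 1,863 to 2,488, since a call in the other is then not needed, and AAACC ran from −0.376 to 0.538. AAACC and GGACT thus have no stable direction, while GAACA and GGAC were less and CACA more frequent at called members under every setting run.

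Calls depend on depth: many rest on fewer than 10 IP reads, pieces of 1 site are not independent, and groups of samples were not tested against each other. Clusters listed at 0 have no recovered reads. Exons and positions come from 1 transcript per gene, and other transcripts entered only through the setting with CDS in every basic transcript (5.01% called, 429 exons) and the checks of single exons.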
